A study of Mus musculus with 45 samples.

Results

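The transcript levels of Trp53, the gene of the transcription factor p53, and of 9 genes that p53 is known to activate were followed through alcohol feeding and recovery in mouse liver. The 10 genes were taken by name from the deposited expression table, which holds 24946 usable genes. They were listed with earlier results of these data in view, so their levels and differences over the 12 groups are given as a description. Where the fit over all genes called a member, the call is listed beside the share of all genes called, and nothing is read from it. Of the 10, 8 passed the filter of a mean of at least 0.5 TPM (a measure of abundance corrected for transcript length and scaled to the same total in every library), while Phlda3 and Eda2r did not.

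Bulk RNA sequencing was done on liver lysate of wild-type (WT) mice on the Lieber-DeCarli diet, a liquid food given with or without ethanol to model alcohol-associated liver injury. The peak stage (16 libraries) came after 6 weeks on either diet. Early resolution (15 libraries) followed 3 days, and late resolution (14 libraries) 2 weeks, in which mice given ethanol for 6 weeks were returned to the control diet. What the control-labelled mice of the resolution stages had been fed is not spelled out in the labels. Stage, diet label and sex label gave 12 groups, 9 of 4 libraries and 3 of 3 (ethanol females at early resolution, ethanol females and ethanol males at late resolution). All groups are wild type, and libraries are named here by label, as in peak ethanol male 1. The labels do not say whether the libraries of a group come from separate mice, so p-values measure the spread between libraries only.

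p53 is held at a low level by the ubiquitin ligase Mdm2, itself a p53 target, and is stabilised as a protein after DNA damage, oxidative stress and ribosomal stress. It then activates genes that stop the cell cycle (Cdkn1a, Btg2, Sesn1), that promote or restrain cell death (Bax, Phlda3, Eda2r) and that feed back on p53 itself (Mdm2, Ccng1, Trp53inp1). Several of these genes also answer to other regulators in liver: Cdkn1a and Trp53inp1 are known FOXO and stress targets, and Btg2 is an early response gene. The level of Trp53 mRNA does not report the amount or activity of the protein, which was not measured here.

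The diet label could not be told apart from sex-linked transcripts. Xist, the RNA of the inactive X chromosome, stood at 13.7 to 51.8 TPM in 21 of 21 ethanol-labelled libraries, in which the Y-linked Eif2s3y was at most 0.0386 TPM. Among the 24 libraries with the control label, 23 had 7.83 to 12.7 TPM of Eif2s3y and no more than 0.349 TPM of Xist, and late control female 1 had Xist at 39.5 TPM. These transcripts went against the sex label in 22 of 45 libraries. Without those 22, no stage keeps a full set of 4 groups, so all libraries were kept as labelled. A difference between diet labels is therefore also one between libraries with and without Xist. The libraries compared between sex labels within a diet label carried like sex-linked transcripts, apart from late control female 1. Whether the diet and sex labels of the columns were exchanged was not tested and cannot be told from these transcripts. Control and ethanol, and males and females, are therefore names of labels below. A difference between sex labels is not taken as one between sexes, nor a difference between diet labels as one between diets. Defining hepatocyte markers were abundant throughout (summed level of the 7 listed genes found, 89847 to 217470 TPM). Each library had 15093 to 16402 genes with a value above 0, and sequencing depth cannot be recovered from TPM.

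A genomic p53 response element lay next to the start of 2 of the 9 members for which RefSeq gives a promoter window (GRCm38.p6, 250 bases before to 50 after each start, 11 windows). The element searched was the canonical p53 response element, a pair of adjacent decamers with no spacer, on both strands, with up to 2 mismatches over its 20 bases and the C and G of both cores intact. In all, 107 of 32851 mouse windows held one (0.326%). The elements of Cdkn1a and Ccng1, each with 1 mismatch, are shown because these members stood at opposite ends of the differences between sex labels at peak. Each sequence is the 250 bases before the start, written 5′ to 3′ on the strand of the gene, with the element in capitals.

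Cdkn1a, chr17:29090729-29090978, plus strand: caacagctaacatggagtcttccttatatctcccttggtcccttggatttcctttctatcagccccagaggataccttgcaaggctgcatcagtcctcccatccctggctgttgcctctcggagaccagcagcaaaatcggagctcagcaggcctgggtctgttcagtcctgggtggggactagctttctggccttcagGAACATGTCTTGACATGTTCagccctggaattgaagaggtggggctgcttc
Ccng1, chr11:40755287-40755536, minus strand: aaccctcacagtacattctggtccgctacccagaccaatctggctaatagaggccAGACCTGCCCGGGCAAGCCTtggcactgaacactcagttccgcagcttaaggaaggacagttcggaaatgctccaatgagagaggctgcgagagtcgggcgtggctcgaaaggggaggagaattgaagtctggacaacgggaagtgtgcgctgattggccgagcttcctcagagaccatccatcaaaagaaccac

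The Cdkn1a element occupies bases 51 to 32 before the upstream of 2 annotated starts, which lie 2790 bases apart, and the Ccng1 element bases 195 to 176 before its start. The windows of the other 7 members searched (Trp53, Mdm2, Btg2, Sesn1, Phlda3, Bax and Eda2r) did not hold these letters. Such a match describes the sequence only, since binding was not measured.

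Among the 8 members past the filter, the range of levels differed widely. Trp53, Mdm2, Bax, Ccng1 and Sesn1 spanned 2.55-fold, 2.94-fold, 3.23-fold, 5.35-fold and 4.07-fold between the lowest and the highest library. Trp53inp1 spanned 25.8-fold, Btg2 49.8-fold and Cdkn1a 235-fold. Much of that span lay between libraries of the same group. The within-group SD of log2(TPM + 0.5) was 1.48 for Cdkn1a, larger than in 99.5% of the 11244 genes tested, 1.00 for Btg2 (98.4%) and 0.83 for Trp53inp1 (97.5%), against a median of 0.28 over those genes. Trp53 (0.20), Mdm2 (0.23) and Bax (0.26) lay under that median. Ccng1 (0.35, larger than in 70.5% of the genes) and Sesn1 (0.40, 80.4%) lay over it.

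**Figure D1:**
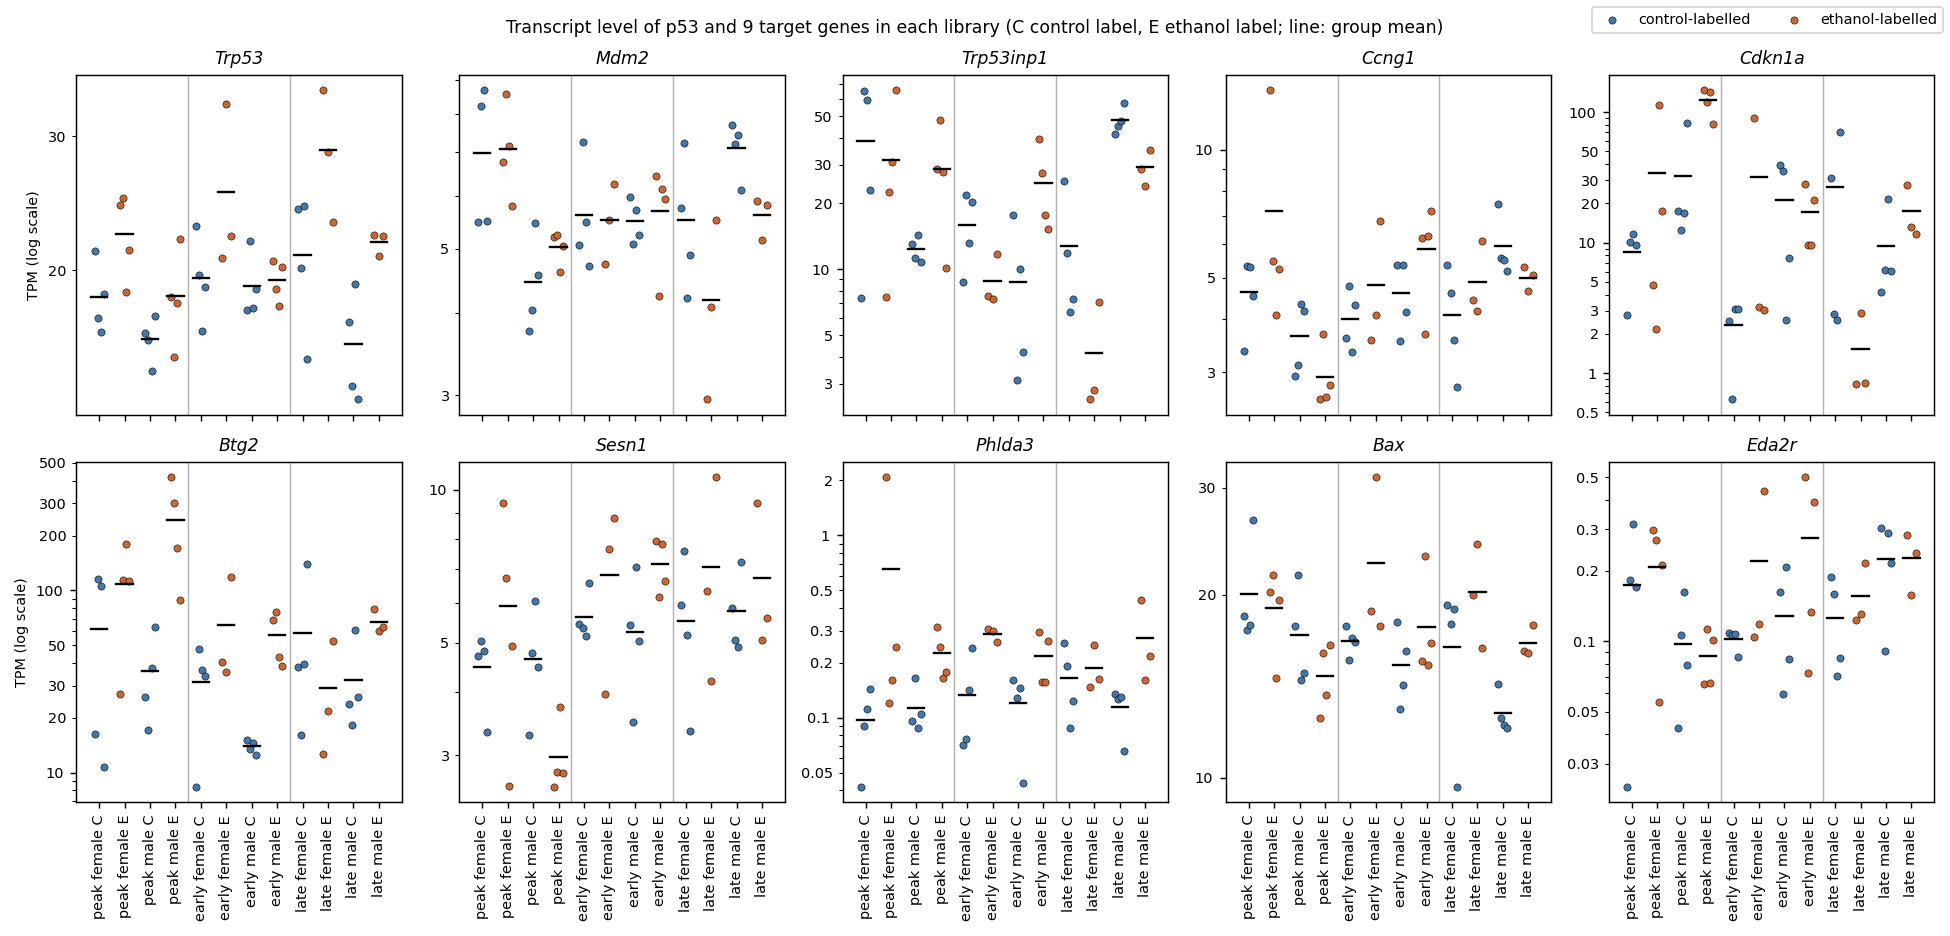
TPM of the 10 genes in each of the 45 libraries on a log scale, by stage, sex label and diet label (blue control, orange ethanol); horizontal lines are group means. Cdkn1a, Btg2 and Trp53inp1 spread widely within groups, with all 4 peak ethanol males at 80.6 TPM or more of Cdkn1a, while Trp53 stays between 13.5 and 34.5 TPM.

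Trp53 itself (chr11:69580359-69591873, plus strand, mm10) was expressed in every library at a mean of 20.2 TPM. At peak it stood at 21.2, 17.3, 16.6 and 18.6 TPM in control females, 24.4, 24.9, 18.7 and 21.3 in ethanol females, 16.6, 16.2, 14.8 and 17.4 in control males, and 18.4, 15.4, 18.1 and 22.0 in ethanol males. These groups overlapped within each sex label, and at early resolution the 15 values ran from 16.7 to 33.1 TPM. At late resolution it stood at 24.1, 20.2, 24.3 and 15.3 TPM in control females, 34.5, 28.6 and 23.1 in ethanol females, 17.1, 14.1, 19.2 and 13.5 in control males, and 22.3, 20.9 and 22.2 in ethanol males. Here the ethanol males lay above the control males with no overlap, and the females overlapped. The late ethanol females had the highest group mean (28.8 ± 5.69 TPM, SD, n = 3) and the late control males the lowest (15.99 ± 2.67, n = 4), a 1.80-fold range of group means. The late ethanol-minus-control difference averaged over sex labels was 0.45 ± 0.11 on the log2 scale (SE, 6 of 6 ethanol libraries above the control mean of their sex label), 0.37 ± 0.13 after median-of-ratios scaling, which sets the typical gene equal between libraries, and 0.49 without late control female 1.

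Mdm2 (chr10:117688875-117710758, minus strand), the ligase that marks p53 for degradation, stood at 2.96 to 8.69 TPM. At peak it stood at 5.49, 8.21, 8.69 and 5.50 TPM in control females, 6.77, 8.56, 7.14 and 5.81 in ethanol females, 3.75, 4.03, 5.48 and 4.56 in control males, and 5.21, 5.24, 4.60 and 5.04 in ethanol males. Every male-labelled library lay under every female-labelled one, the nearest pair being 5.48 and 5.49 TPM. The male-minus-female difference at peak was -0.51 ± 0.12 log2 as deposited and -0.19 ± 0.09 after median-of-ratios scaling, which takes out a shift of -0.29 log2 in the median of all genes in that comparison. At late resolution the group means of the sex labels stood in the opposite order, with overlap within each diet label. Mdm2 stood at 7.69, 7.19, 7.43 and 6.12 TPM in control males and 5.91, 5.15 and 5.82 in ethanol males. The control females had 5.76, 7.23, 4.20 and 4.90 TPM and the ethanol females 2.96, 4.07 and 5.53. The late male-minus-female difference was 0.39 ± 0.13 log2 as deposited and 0.34 ± 0.10 after scaling. The late control males were the highest group (7.11 ± 0.69 TPM) and the late ethanol females the lowest (4.19 ± 1.29).

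Trp53inp1 (chr4:11156431-11174379, plus strand), whose stress-induced protein helps p53 become phosphorylated and also acts in autophagy, showed the sharpest separation by sex label at late resolution. It stood at 41.6, 45.04, 47.7 and 57.4 TPM in late control males and at 28.8, 24.1 and 35.2 in late ethanol males. The late control females had 25.4, 11.9, 6.39 and 7.30 TPM and the late ethanol females 2.55, 2.81 and 7.09. Within each diet label the male-labelled libraries lay above the female-labelled ones with no overlap. Within the male label the ethanol libraries lay below the controls with no overlap. The male-minus-female difference was 2.43 ± 0.43 log2 (2.38 ± 0.41 after median-of-ratios scaling, 2.63 without late control female 1). At peak the order was mixed: control females had 7.39, 65.0, 59.0 and 23.1 TPM, ethanol females 7.45, 22.5, 30.8 and 65.9, control males 13.1, 11.3, 14.3 and 10.8, and ethanol males 28.6, 48.1, 27.9 and 10.2. Both female groups at peak thus covered nearly the whole range of the gene, and the peak control males were tight (12.4 ± 1.61 TPM, n = 4). At early resolution the ethanol males (39.2, 27.4, 17.7 and 15.3 TPM) lay above the ethanol females (7.55, 7.34 and 11.8), while control females (8.72, 21.8, 13.2 and 20.3) and control males (17.6, 3.14, 10.05 and 4.22) overlapped.

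Ccng1 (chr11:40748552-40755311, minus strand), which encodes cyclin G1, a partner of the phosphatase that acts on Mdm2, had most libraries between 2.59 and 7.44 TPM. At peak it stood at 3.37, 5.32, 5.31 and 4.54 TPM in control females, 13.8, 5.49, 4.10 and 5.26 in ethanol females, 2.94, 3.12, 4.33 and 4.18 in control males, and 2.59, 3.68, 2.62 and 2.79 in ethanol males. The value of 13.8 in peak ethanol female 1 was the highest of all 45, and the peak ethanol males were the lowest group (2.92 ± 0.52 TPM, n = 4), below every peak ethanol female. The male-minus-female difference at peak was -0.67 ± 0.17 log2, -0.35 ± 0.12 after median-of-ratios scaling and -0.49 without peak ethanol female 1. At late resolution the control males (7.44, 5.56, 5.52 and 5.19 TPM) were the highest group, though they overlapped the control females (5.36, 4.61, 3.57 and 2.76).

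Cdkn1a (chr17:29090976-29100727, plus strand), which encodes the cyclin-dependent kinase inhibitor p21, was highest in the peak ethanol males at 148, 121, 143 and 80.6 TPM. The peak control males had 17.4, 12.5, 17.0 and 82.0 TPM, so that control male 4 alone reached into the range of the ethanol males. The peak control females had 2.81, 10.1, 11.7 and 9.54 TPM, all under every peak control male. The peak ethanol females had 4.77, 2.17, 113 and 17.6 TPM, with 1 library far above the other 3. All 8 peak male libraries lay above the female mean of their diet label on the log2 scale, and the male-minus-female difference was 2.39 ± 0.70 log2 (2.73 ± 0.75 after median-of-ratios scaling, 2.91 without peak ethanol female 3). The ethanol-minus-control difference at peak was 1.51 ± 0.70 log2, with 6 of 8 ethanol libraries on the higher side, and 0.985 without peak ethanol female 3. A transcript annotated on the other strand (AC167363.2) overlaps the gene. The library kit keeps strand, but how strand was used in counting is not given in the sources used here.

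After the peak, Cdkn1a was spread within most groups, with 1 or 2 libraries well above the rest in several. At early resolution the values were 2.51, 0.629, 3.12 and 3.10 TPM in control females, 89.7, 3.22 and 3.05 in ethanol females, 39.4, 35.4, 2.57 and 7.66 in control males, and 28.1, 9.55, 9.62 and 21.3 in ethanol males. The ethanol females there had a mean of 31.98 TPM with an SD of 49.96, with 1 library at 89.7 and the others at 3.22 or less. The early control males split into 2 libraries above 35 TPM and 2 below 8. At late resolution the values were 31.2, 2.85, 2.54 and 70.9 TPM in control females, 0.831, 2.88 and 0.846 in ethanol females, 4.21, 6.16, 21.4 and 6.10 in control males, and 27.9, 13.1 and 11.7 in ethanol males. The late ethanol females were the lowest of all 12 groups (1.52 ± 1.18 TPM, n = 3) and lay below the late ethanol males with no overlap. Late control females had 2 high libraries and 2 low ones, and late control males 1 high library. In the order of group means, the peak ethanol males (123 ± 30.6) were followed by the peak ethanol females (34.5 ± 52.999), peak control males (32.2 ± 33.3), early ethanol females (31.98 ± 49.96), late control females (26.9 ± 32.3) and early control males (21.2 ± 18.8). The neighbours after the first did not differ beyond these SDs.

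Btg2 (chr1:134075170-134079120, minus strand), an antiproliferative protein that also recruits mRNA deadenylases, shared its highest group with Cdkn1a. At peak it stood at 417, 301, 170 and 88.8 TPM in ethanol males and 26.1, 17.2, 37.7 and 63.0 in control males, with no overlap. The peak ethanol females had 27.1, 115, 180 and 112 TPM and the peak control females 16.3, 115, 105 and 10.8, which overlapped. At early resolution the ethanol males had 68.6, 76.4, 43.4 and 38.7 TPM and the control males 15.2, 13.5, 14.5 and 12.5. These male groups again did not overlap, and the early control males were the lowest group (13.9 ± 1.17 TPM, n = 4). The early females were closer, at 40.7, 35.7 and 118 TPM with the ethanol label and 8.36, 47.7, 36.6 and 33.9 with the control label. The ethanol-minus-control difference was 1.94 ± 0.47 log2 at peak (7 of 8 ethanol libraries above the control mean of their sex label) and 1.49 ± 0.49 at early resolution (7 of 7). At late resolution it was 0.20 ± 0.51 log2, with ethanol males at 78.8, 59.8 and 62.6 TPM, control males at 24.0, 18.2, 60.7 and 26.0, ethanol females at 12.7, 21.7 and 52.7, and control females at 37.8, 16.02, 39.5 and 139. There the males and the females went opposite ways in group mean, and the groups overlapped within each sex label.

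Sesn1 (chr10:41809935-41908424, plus strand), a sestrin that restrains mTORC1 and supports antioxidant defence, was lowest where Cdkn1a was highest. The peak ethanol males had 2.60, 2.78, 3.74 and 2.77 TPM, the lowest group (2.97 ± 0.52, n = 4). The other peak groups were wider, at 4.70, 5.03, 4.82 and 3.34 TPM in control females, 9.43, 6.69, 2.61 and 4.94 in ethanol females, and 3.29, 4.77, 6.04 and 4.48 in control males. Of the peak libraries outside the ethanol males, 3 stood under their highest value of 3.74 TPM, among them ethanol female 3, the library with 113 TPM of Cdkn1a. The early ethanol males (7.94, 6.15, 7.83 and 6.63 TPM) were the highest group, and every group mean after the peak lay between 5.25 and 7.14 TPM. A gene of unresolved type on the same strand (9930024M15Rik) overlaps Sesn1, so reads of the pair may not be separable.

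Bax (chr7:45461697-45466898, minus strand), the mitochondrial effector of cell death, was among the members with the narrowest spread, at a mean of 17.3 TPM. Its values ran from 12.6 to 26.5 TPM at peak, and the ranges of ethanol and control libraries there overlapped. At late resolution the ethanol males (16.2, 16.1 and 17.9 TPM) lay above the control males (14.3, 12.6, 12.2 and 12.1), and the ethanol females (20.02, 24.2 and 16.3) overlapped the control females (19.2, 17.9, 18.9 and 9.66). The late ethanol-minus-control difference was 0.35 ± 0.14 log2 (6 of 6 ethanol libraries above the control mean of their sex label), and 0.27 ± 0.14 after median-of-ratios scaling. Bax overlaps Gm45808, annotated on the same strand, so reads of the pair may not be separable.

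Phlda3, which restrains the survival kinase Akt, and Eda2r, a death receptor of the TNF receptor family, were barely detected, at means of 0.213 and 0.166 TPM. Peak ethanol female 1 had 2.08 TPM of Phlda3, against 0.0417 to 0.440 TPM in the other 44 libraries. Eda2r stood between 0.0239 and 0.499 TPM, with its highest values in early ethanol male 1 (0.499), early ethanol female 3 (0.437) and early ethanol male 4 (0.392). At such levels the values rest on few reads and no difference was computed for them with the filter. Without it, the ethanol-minus-control difference of Phlda3 was 0.45 ± 0.16 log2 at peak, where it was called, with peak ethanol female 1 included. It was 0.27 ± 0.16 at early and 0.18 ± 0.17 at late resolution, not called.

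Set side by side, the ethanol-minus-control differences of all 8 members lay above 0 at early resolution as deposited, where 71.5% of all genes tested did. After median-of-ratios scaling 7 did, Mdm2 being the exception, with 44.4% of all genes. At peak 6 of 8 lay above 0 on both scales (Sesn1 and Bax below), and at late resolution 5 as deposited and 4 after scaling. A gene was called in the limma fit over all 11244 genes at a Benjamini-Hochberg adjusted p under 0.05. At peak 1 of 8 members was called (Btg2, higher), where 27.1% of all genes tested were called. At early resolution 1 was called (Btg2, higher) against 16.7% of all genes, and none after median-of-ratios scaling. At late resolution 1 was called (Trp53, higher) against 12.8% of all genes. After median-of-ratios scaling 3 were called there (Trp53 higher, Mdm2 and Trp53inp1 lower), with 21.1% of all genes. Leaving out 1 late library at a time took those 3 to between 1 and 4: Mdm2 remained in 14 of 14 cases and alone in 9, Trp53 in the 4 without control female 1, control female 3, ethanol female 3 or control male 3, and Trp53inp1 in 3. The late difference was -0.34 ± 0.13 log2 for Mdm2 and -1.07 ± 0.43 for Trp53inp1, the latter lower in 6 of 6 ethanol libraries, and -0.33 and -0.87 without late control female 1. The median over the 8 members was 0.16, 0.30 and 0.11 log2 at peak, early and late resolution, beside 0.05, 0.13 and 0.05 over all genes. The share of called genes that were higher with the ethanol label was 63.8%, 85.3% and 68.9% at the 3 stages, and 42.1%, 45.5% and 40.6% after median-of-ratios scaling. Since the members were chosen on these groups, nothing is read from their counts.

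Between the sex labels, the members changed their order from stage to stage. At peak 3 of 8 were called (Cdkn1a higher, Mdm2 and Ccng1 lower in male-labelled libraries), where 51.0% of all genes were called. Of those called genes 8.36% were higher as deposited and 51.1% after median-of-ratios scaling, under which Ccng1 and Cdkn1a were called and 31.6% of all genes. The scaled call of Ccng1 was lost without peak control female 2 or 3, ethanol female 1, control male 1 or 2, or ethanol male 4. Leaving out peak ethanol female 3 made it 6 members as deposited, with Trp53, Sesn1 and Bax added as lower. For Trp53 and Bax the sign of the peak difference followed the scaling (-0.22 and -0.28 log2 as deposited, 0.12 and 0.06 after it). At early resolution no member was called, with 0.596% of all genes. At late resolution 1 was called (Trp53inp1, higher in male-labelled libraries) against 3.25% of all genes. After scaling 3 were called there (Trp53inp1 and Mdm2 higher, Trp53 lower) against 9.55%. Trp53inp1 alone was left without late control female 1 or 3, ethanol female 1 or 2, or ethanol male 1 or 3. Bax was lower in 7 of 7 late male-labelled libraries (-0.28 ± 0.14 log2). The male-minus-female difference itself changed from peak to early resolution in 2 members called (Mdm2, not after scaling, and Ccng1), with 31.9% of all genes called. From peak to late resolution it changed in 3 (Mdm2, Ccng1 and Trp53inp1), with 36.5%. Scaling added Trp53 to these 3, with a change of the opposite sign (-0.55 log2).

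**Figure D2:**
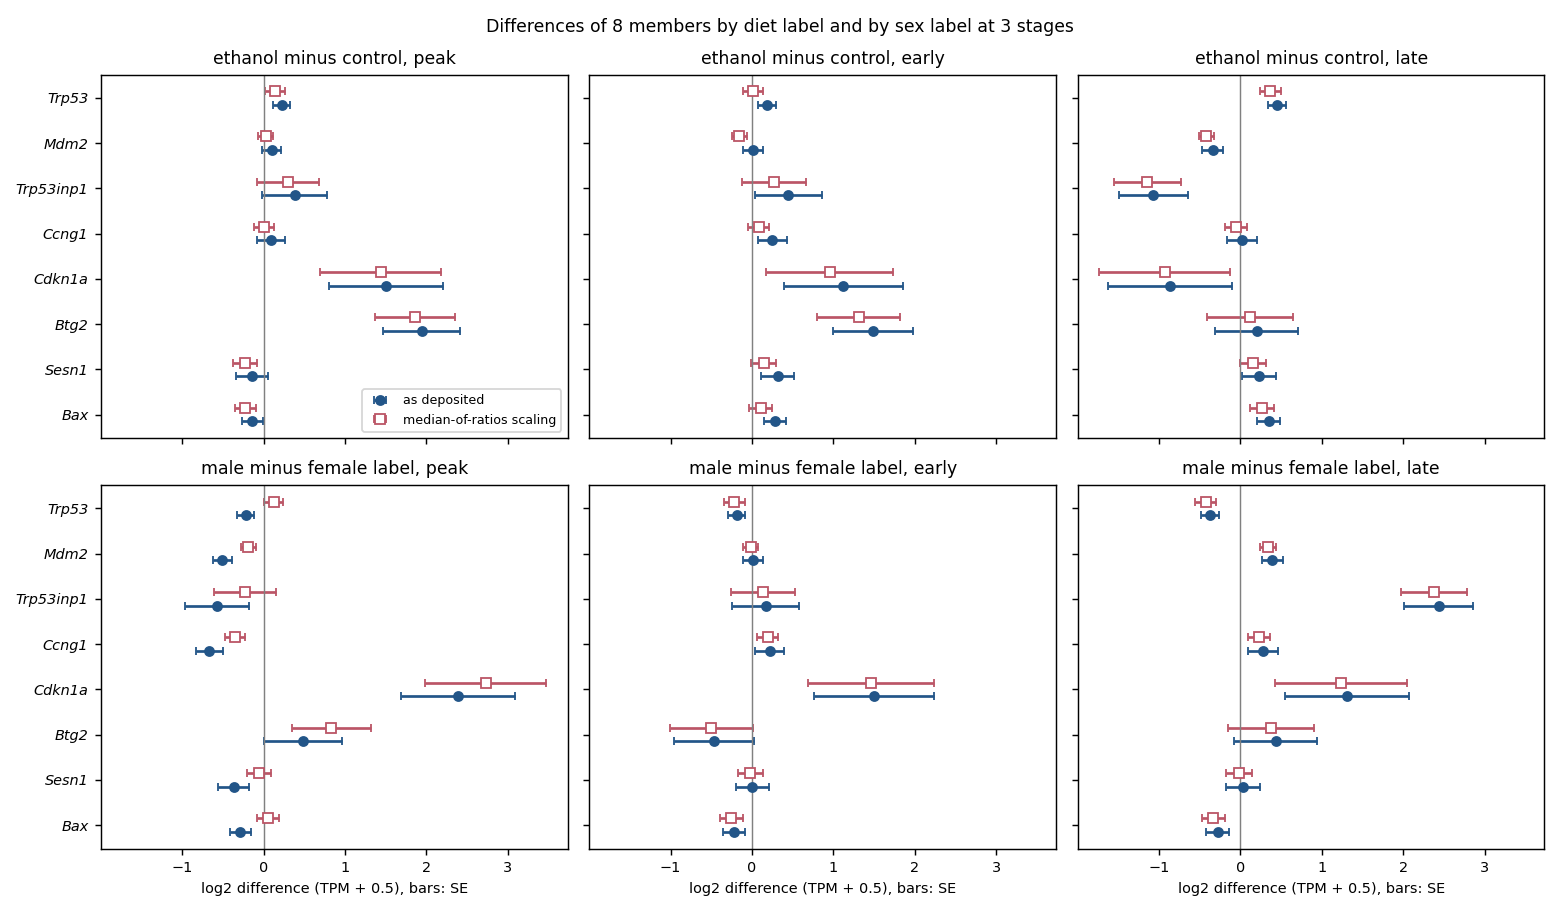
Log2 difference of TPM + 0.5 (points, bars are SE) for the 8 members past the filter, ethanol minus control label in the upper panels and male minus female label in the lower ones, at 3 stages. Filled circles are values as deposited and open squares values after median-of-ratios scaling: Btg2 and Cdkn1a lie to the right for the ethanol label at peak and early resolution, Cdkn1a at peak and Trp53inp1 at late resolution lie far to the right for the male label, and Trp53, Mdm2, Ccng1, Sesn1 and Bax shift right by about the same step under scaling in the peak male-minus-female panel.

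Averaged over diet and sex labels, Cdkn1a and Btg2 were lower and Sesn1 higher after the peak, to an extent that depended on the scaling and on single libraries. From peak to early resolution 4 of 8 members were called, against 23.5% of all genes: Cdkn1a (-1.42 ± 0.51 log2), Btg2 (-1.08 ± 0.34) and Trp53inp1 (-0.80 ± 0.29) lower, and Sesn1 (0.46 ± 0.14) higher. After median-of-ratios scaling Mdm2 was also called lower (-0.18), with 24.3% of all genes. Of 31 fits that left out 1 library as deposited, Sesn1 was called in 31, Btg2 in 30, and Cdkn1a and Trp53inp1 in 16 each. The 4 calls became 1, that of Sesn1, without early ethanol female 2. They became 2 (Btg2 and Sesn1) without early control male 4, early ethanol male 3, peak ethanol male 1 or 3, peak ethanol female 3 or 4, or peak control female 2 or 3. After scaling the count ran from 2 to 5, and it was 2 (Trp53inp1 and Btg2) without peak ethanol female 3 or early ethanol female 2 or 3.

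From peak to late resolution 2 members were called as deposited, against 23.2% of all genes: Cdkn1a (-1.66 ± 0.52 log2) lower and Sesn1 (0.45 ± 0.14) higher. After median-of-ratios scaling Sesn1 (0.30) was no longer called, and 4 were called lower, with 17.7% of all genes: Cdkn1a (-1.82), Btg2 (-1.05), Bax (-0.28) and Mdm2 (-0.22). Of 30 fits that left out 1 library, Cdkn1a was called in 30 on either scale, Sesn1 in 28 as deposited and Mdm2 in 30 after scaling, where Btg2 was called in 13 and Bax in 10. As deposited 1 was called without late ethanol male 1, 3 without peak control female 1 or 4, peak ethanol male 4 or late control male 3, and 4 without peak ethanol female 1 or late control female 4. Both comparisons share the peak libraries. Scaling removes a shift of the median gene of 0.12 and 0.14 log2 in them. Of the called genes 84.3% and 91.6% were higher than at peak as deposited, and 43.7% and 46.9% after scaling. Between early and late resolution no member was called, with 0.00889% of all genes.

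Among the control-labelled libraries alone no member was called from peak to early (0.729% of all genes) or to late resolution (0.676%) as deposited, and Bax alone, lower to late resolution, after scaling. There Cdkn1a differed by -1.23 ± 0.70 log2 to early and -0.47 ± 0.70 to late resolution, Btg2 by -0.85 ± 0.47 and -0.0013 ± 0.47, and Trp53inp1 by -0.83 ± 0.40 and 0.28 ± 0.40, so that at late resolution Trp53inp1 had the opposite sign. Neutrophil markers moved with the change averaged over the labels. Of 5 tested, 4 fell from peak to early resolution (5 after scaling) and 1 to late resolution (2 after scaling), with medians of -2.13 and -0.89 log2. Of all genes 3.69% and 1.94% fell in these comparisons, and 13.7% and 9.40% after scaling. The part of neutrophils in the change of the members was not tested.

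Within groups the members did not move as one. Deviations from the group mean on the log2(TPM + 0.5) scale, over 45 libraries that share the fixed TPM total, are described by Pearson's r. The closest pairs were Ccng1 with Eda2r (r = 0.692), with Sesn1 (0.670) and with Phlda3 (0.643), the last falling to 0.274 without peak ethanol female 1. Eda2r and Phlda3 lay under the filter, so their pairs rest on few reads and have no value after scaling. Trp53inp1 went with Btg2 (0.570) and Trp53 with Bax (0.527), while Btg2 ran against Bax (-0.558) and Trp53 (-0.462). Median-of-ratios scaling left Trp53inp1 with Btg2 at 0.569 and Trp53 with Bax at 0.591, but took Ccng1 with Sesn1 to 0.398. It took Mdm2 with Ccng1 from 0.516 to 0.0261 and Mdm2 with Sesn1 from 0.399 to -0.176.

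**Figure D3:**
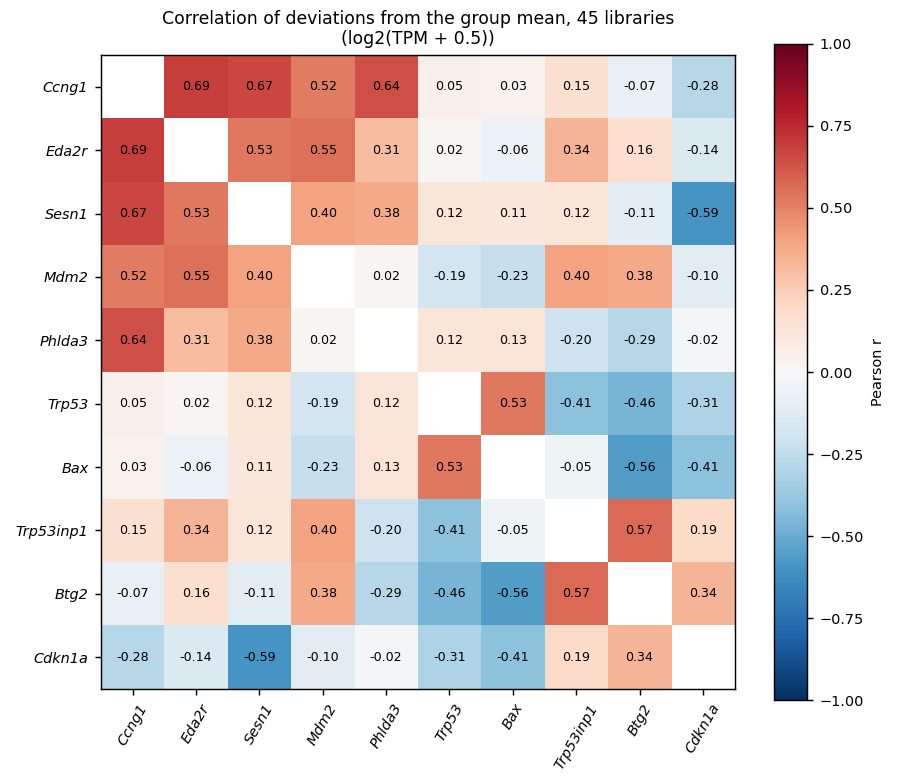
Pearson correlation between the 10 genes of their deviations from the group mean over 45 libraries, on log2(TPM + 0.5). A warm block joins Ccng1, Eda2r, Sesn1 and Mdm2 as deposited, and the coldest cell is Cdkn1a with Sesn1 at -0.59. Median-of-ratios scaling took Mdm2 with Ccng1 to 0.0261 and Mdm2 with Sesn1 to -0.176, and Eda2r, under the filter, has no scaled value.

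Cdkn1a and Sesn1, both growth-arrest genes, went in opposite directions within groups. Their r was -0.594 and Spearman's rho -0.468 over 45 libraries. Without the 2 libraries farthest from the median of Cdkn1a, peak ethanol female 3 and early ethanol female 1, r was -0.453, and after median-of-ratios scaling -0.542. The median r of Cdkn1a with all genes tested was -0.263 as deposited. Most genes thus held a lower share of the fixed TPM total where Cdkn1a was high, and this median is not given after scaling. Btg2 had an r of 0.339 with Cdkn1a (0.419 after scaling) and Trp53inp1 one of 0.193 (0.275). Scaling changed the sign for Mdm2 (-0.104 to 0.309) and Trp53 (-0.308 to 0.135). It took Bax from -0.412 to -0.0577 and Ccng1 from -0.284 to -0.123. These values describe genes whose pattern over the groups was known when they were listed.

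The genes most like Cdkn1a within groups, among 9989 ranked by r over 45 libraries, were Hcar2 (0.859), St5 (0.849), Arhgef26 (0.833), Ldha (0.832), which encodes a lactate dehydrogenase subunit, and Serpina3m (0.820). Hcar2 ranged from 0.0553 to 54.0 TPM and Ldha from 1100 to 3785 TPM. Over the 12 group means the closest were Nedd4l (0.931), Nfil3 (0.927), a transcriptional repressor of the circadian system, Hspb8 (0.907), a small heat shock protein, Gm15694 (0.905) and 2010003K11Rik (0.904). Of the listed wider targets, Ddit4 (0.629), Fas (0.584) and Lpin1 (0.499) were the closest to Cdkn1a within groups. For Btg2 only the wider targets and the immediate early genes tested were ranked. Among these it was closest to the early response gene Atf3 (0.716) and to Gadd45a (0.636). The median r of Btg2 with 10 immediate early genes was 0.474, beside -0.0317 with all genes tested.

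A wider list of 43 further p53 targets, of which 35 were tested, gave 4 calls by diet label and 23 by sex label at peak. Like the members, this list and the other gene lists used here were chosen with earlier results of these data known. Their counts and adjusted p-values are therefore a description and no independent support. Of all genes tested 17.3% were higher and 9.81% lower with the ethanol label there. Among 11 targets of arrest and repair, 2 rose with the ethanol label at peak: Gadd45a (1.46 ± 0.28 log2, limma adjusted p = 2e-04), a growth arrest and DNA damage gene, and the phosphatase Ptp4a3 (1.14 ± 0.30, adjusted p = 0.0048). Among 8 targets of cell death, the death receptor Fas (0.93 ± 0.16, adjusted p = 3.6e-05) and Trp53i11 (0.69 ± 0.17, adjusted p = 0.0027) rose. Of the 16 targets of metabolism, secretion and feedback none passed as deposited, with 3 at an unadjusted p under 0.05. After median-of-ratios scaling 4 of the 35 rose at peak and 5 fell (Xpc, Aifm2, Tigar, Fdxr and Abhd4, named after their values were seen). Of all genes 35.7% were then called, and 42.1% of those were higher. The medians of the 3 groups of targets were 0.14, -0.12 and -0.08 log2, beside 0.05 for all genes.

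At early resolution 7 of the 35 rose and none fell with the ethanol label, where 14.3% of all genes rose and 2.46% fell. Gadd45a (1.66 ± 0.30 log2, limma adjusted p = 0.00012), the damage recognition factor Ddb2 (0.64 ± 0.18, adjusted p = 0.013), Trp53i11 (0.75 ± 0.18, adjusted p = 0.0032) and the stress cytokine Gdf15 (1.84 ± 0.44, adjusted p = 0.0034) passed on both scales. Ptp4a3, Fas and the phosphatase Ppm1d passed as deposited but not after scaling, under which Zmat3 fell. Leaving out any of 6 early libraries (control female 1, ethanol females 2 and 3, control male 4, ethanol males 1 and 4) gave 4 calls in place of 7, and leaving out ethanol female 1 gave 11. The 3 medians were 0.22, 0.32 and 0.20 log2, beside 0.13 for all genes.

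At late resolution 2 of the 35 rose and 4 fell with the ethanol label, where 8.82% of all genes rose and 3.98% fell. Gadd45a (1.38 ± 0.31 log2, limma adjusted p = 0.0023) and Trp53i11 (0.69 ± 0.19, adjusted p = 0.011) rose at this stage as at the earlier ones. The kinase Plk3 (-0.91 ± 0.28, adjusted p = 0.026), the mTORC1 inhibitor Ddit4 (-1.26 ± 0.41, adjusted p = 0.038), the phosphatidate phosphatase Lpin1 (-1.33 ± 0.41, adjusted p = 0.025) and the RNA-binding protein Zmat3 (-0.39 ± 0.11, adjusted p = 0.017) fell. The total of 6 became 2 without late ethanol female 1, 3 without late ethanol female 2 and 1 with the replicate number as a block. The 3 medians were 0.07, 0.14 and 0.05 log2, beside 0.05 for all genes.

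**Figure D4:**
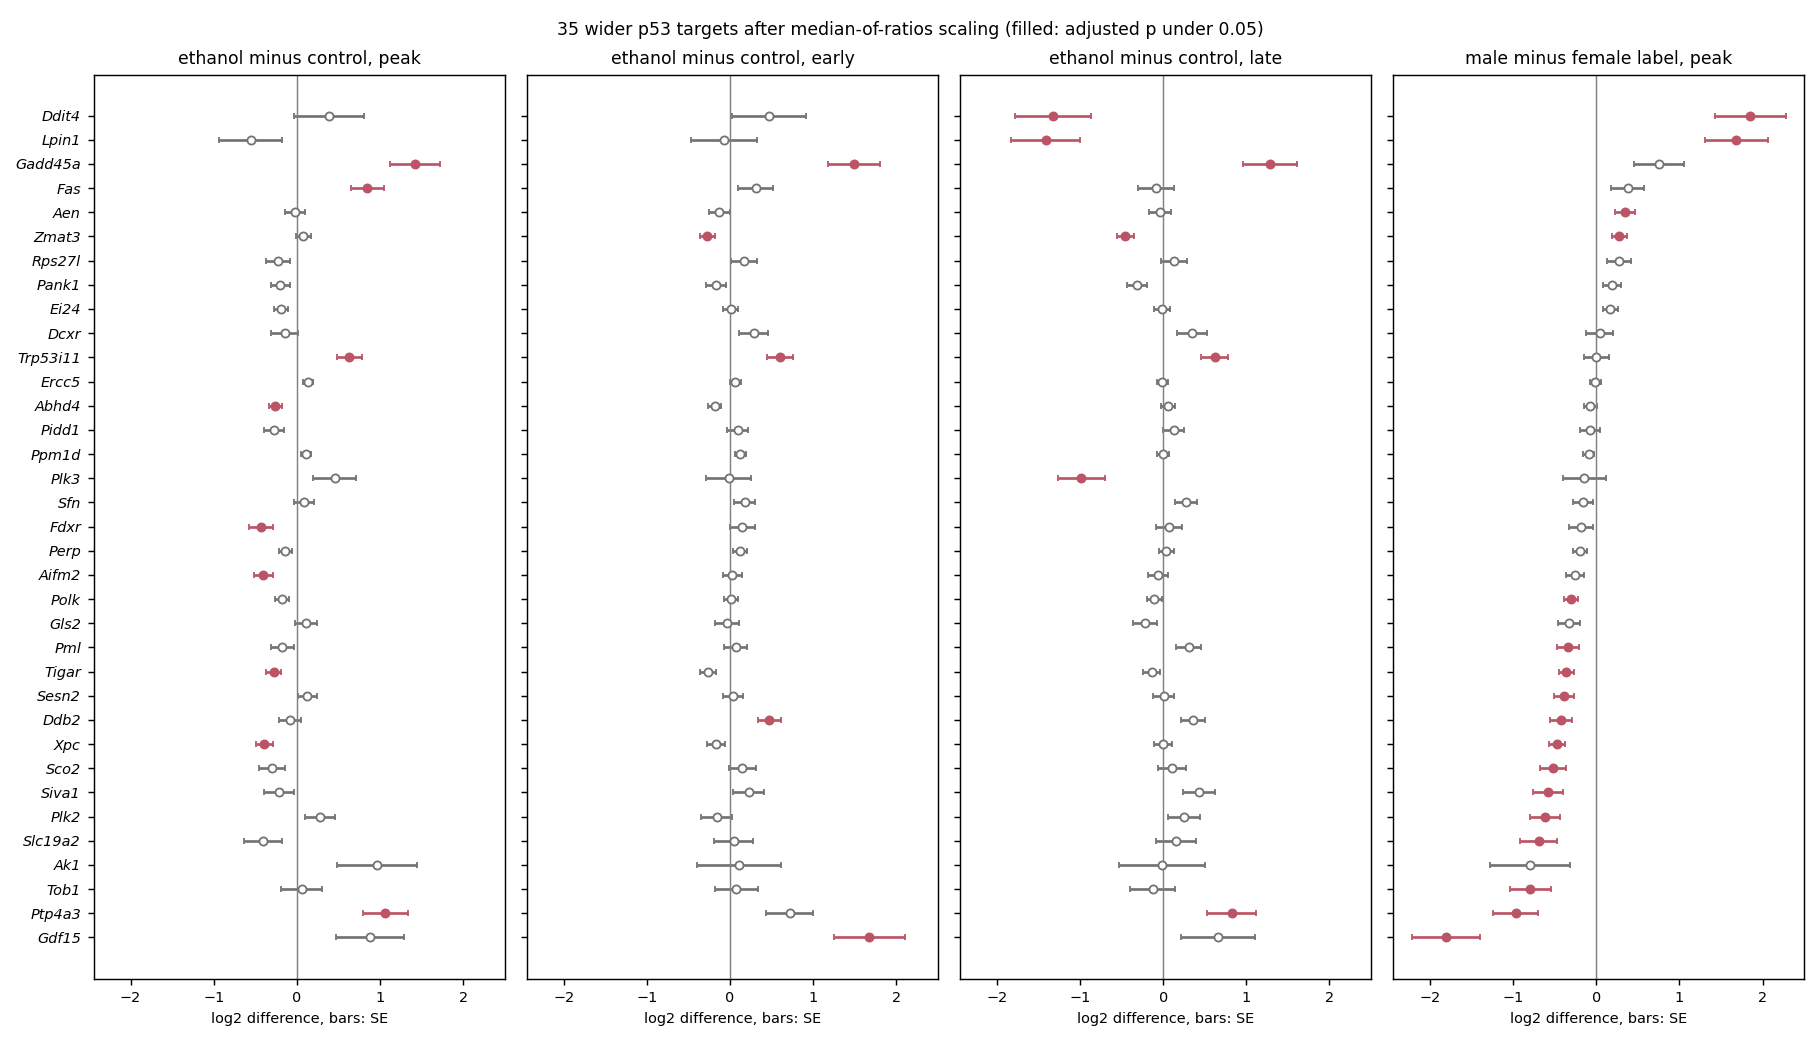
Log2 difference of 35 wider p53 targets (points, bars are SE) after median-of-ratios scaling, for ethanol minus control label at 3 stages and male minus female label at peak, ordered by the last panel; filled points have an adjusted p under 0.05. Gadd45a and Trp53i11 are filled to the right in all 3 diet panels, and Ddit4 and Lpin1 are filled to the right and Gdf15 to the left in the sex label panel.

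Between the sex labels at peak, 2 of the 35 wider targets were higher and 21 lower in male-labelled libraries, and 4 and 13 after median-of-ratios scaling. Of all genes 4.26% were higher and 46.7% lower as deposited, and 16.2% and 15.5% after scaling. The higher ones as deposited were Ddit4 (1.52 ± 0.38 log2, limma adjusted p = 0.0017) and Lpin1 (1.33 ± 0.38, adjusted p = 0.0042), named after their values were seen. The lower ones on both scales included Xpc (-0.80 ± 0.17, adjusted p = 0.00031) and Plk2 (-0.92 ± 0.21, adjusted p = 0.00086) among repair and arrest targets, and Tigar (-0.68 ± 0.11, adjusted p = 2.3e-05), Sco2 (-0.86 ± 0.16, adjusted p = 9.2e-05) and Gdf15 (-2.08 ± 0.42, adjusted p = 0.00027) among metabolic and secreted ones. The medians of the 3 groups of targets were -0.50, -0.27 and -0.58 log2 as deposited, beside -0.29 for all genes. At early resolution none of the 35 passed, with 3 at an unadjusted p under 0.05, and 1 passed after scaling (Ei24). At late resolution Plk3 (1.13 ± 0.28, adjusted p = 0.023), Lpin1 (1.58 ± 0.41, adjusted p = 0.028) and Zmat3 (0.48 ± 0.11, adjusted p = 0.020) were higher in male-labelled libraries, where 2.46% of all genes were higher and 0.783% lower. None of the 35 passed there without late control female 3, late ethanol female 1 or late ethanol male 1, and 5 did without late control female 4.

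Across stages, Pml rose from peak to early (0.63 ± 0.14 log2, limma adjusted p = 0.0015) and to late resolution (0.59 ± 0.14, adjusted p = 0.0042), and Plk3 fell (-0.83 ± 0.19, adjusted p = 0.0017, and -0.61 ± 0.19, adjusted p = 0.020). In all 2 of the 35 rose and 1 fell to early resolution, where 19.8% of all genes rose and 3.69% fell. After median-of-ratios scaling 1 rose (Pml) and 5 fell (Plk3, Ercc5, Gls2, Sesn2 and Ddit4, named after their values were seen), with 10.6% and 13.7% of all genes. To late resolution 4 rose and 1 fell, with 21.2% and 1.94% of all genes, and after scaling 3 rose (Polk, Pank1 and Pml) and 2 fell (Plk3 and Sesn2), with 8.32% and 9.40%.

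The genes around p53 gave a mixed picture. Among 11 regulators and relatives tested, the acetyltransferase gene Kat5 rose with the ethanol label at all 3 stages as deposited (0.34 ± 0.08 log2, limma adjusted p = 0.0019 at peak), but after median-of-ratios scaling only at peak. The kinase Chek2 fell at peak (-0.67 ± 0.25, adjusted p = 0.044) and Atr at late resolution (-0.59 ± 0.16, adjusted p = 0.014), on both scales. These were the lower calls as deposited. After scaling 4 of the 11 fell at peak (Mdm4, Atm, Atr and Chek2), with 35.7% of all genes called. At early resolution 1 fell (Atr), with 1883 of the 11244 genes called. At late resolution 4 fell (Atr, Usp7, Trp53bp1 and Cop1), with 21.1% of all genes called. Of 18 cell cycle genes that p53 and p21 are known to repress, 9 were tested. With the ethanol label Rrm2 fell at peak (-0.60 ± 0.22, adjusted p = 0.040), Cdk1 rose at early resolution (0.56 ± 0.16, adjusted p = 0.013) and Aurka fell at late resolution (-0.61 ± 0.20, adjusted p = 0.041). In the male-labelled libraries at peak, where Cdkn1a was highest, Rrm2 was higher (1.78 ± 0.22, adjusted p = 6.3e-07), while Cdk1, Birc5 and E2f1 were lower as deposited and Birc5 alone after scaling. Of all genes 4.26% were higher and 46.7% lower there, and 16.2% and 15.5% after scaling. From peak to early resolution 4 of the 9 rose (Cdk1, Aurka, Mcm2 and Mcm5) and 0 fell, with 19.8% and 3.69% of all genes. To late resolution 3 rose and 0 fell, with 21.2% and 1.94%. After scaling 3 and 2 rose, with 10.6% and 8.32% of all genes.

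Immediate early genes, which rise within minutes of many stimuli, were counted beside Btg2. Of 10 tested, 4 rose with the ethanol label at peak, 8 at early resolution and 2 at late resolution, and 3, 7 and 1 after median-of-ratios scaling. Of all genes 17.3%, 14.3% and 8.82% rose at these stages as deposited. Btg2 itself stood at 1.94, 1.49 and 0.20 log2 there. Ier3 (2.31 ± 0.30 log2, limma adjusted p = 3e-07) and Atf3 (2.40 ± 0.51, adjusted p = 6e-04) led at peak. Between sex labels at peak 6 fell in male-labelled libraries, with 46.7% of all genes, among them Fos (-2.64 ± 0.61, limma adjusted p = 0.00083). Btg2 differed by 0.48 ± 0.47 there. After scaling 4 fell and 1 rose, with 15.5% and 16.2% of all genes. From peak to early resolution, where Btg2 was lower by the values above, 2 rose and 1 fell, with 19.8% and 3.69% of all genes. Their median was 0.30 log2 beside 0.12 for all genes, and after scaling none rose and Ier3 fell. Of 10 genes of fasting, FOXO and glucocorticoid signalling, 5 were higher at late resolution in male-labelled libraries, where 2.46% of all genes were. Among them were Igfbp1 (2.11 ± 0.49, limma adjusted p = 0.020), Tsc22d3 (1.58 ± 0.30, adjusted p = 0.0048) and Pck1 (1.00 ± 0.19, adjusted p = 0.0050). After scaling 7 were higher, with 9.55% of all genes called in either direction. The part of handling, time of day or feeding state in these values was not tested.

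Markers of other liver cells moved with several of these comparisons. In bulk tissue fewer cells of a type and less RNA per cell cannot be told apart. With the ethanol label at peak, early and late resolution, 8, 1 and 0 of 8 endothelial markers rose (8, 0 and 0 after median-of-ratios scaling). For 8 stellate cell markers the counts were 6, 3 and 0 (7, 1 and 0). For 8 Kupffer cell and macrophage markers they were 0, 6 and 3 (0, 4 and 5). Of 7 T, NK and B cell markers 1, 4 and 5 rose (1, 2 and 5), and Cd4 fell at peak and early resolution. Of 7 hepatocyte markers 1, 1 and 2 rose and 2, 1 and 2 fell, with Serpina1c lower at each stage. The erythroid marker Alas2 also fell at each stage. Of all genes 17.3%, 14.3% and 8.82% rose at the 3 stages as deposited, and 9.81%, 2.46% and 3.98% fell. After scaling 4016, 1883 and 2374 of the 11244 genes were called, of which 42.1%, 45.5% and 40.6% were higher. Between sex labels at peak, 4 of 5 neutrophil markers tested were higher in male-labelled libraries, among them S100a8 (1.80 ± 0.51 log2, limma adjusted p = 0.0042). There 7 of 8 endothelial markers were lower (4 after median-of-ratios scaling). Of all genes 4.26% were higher and 46.7% lower in that comparison, and 16.2% and 15.5% after scaling. The summed level of the 7 neutrophil markers was 99.4 to 152 TPM in the peak ethanol males, 30.9 to 77.2 in peak control males, 7.47 to 44.2 in peak ethanol females and 5.06 to 68.8 in peak control females. The median r of Cdkn1a with the neutrophil markers tested was 0.539 within groups, and that of Sesn1 -0.536. No marker of these lists was at 0 in every library, and the part of these cells in the levels of p53 targets was not tested.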

How the data were processed

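Levels come from 1 deposited table whose values are TPM made by the authors, which sum to between 999999 and 1000001 in each of 45 libraries. Per the labels' protocols, RNA was spin-column purified and a stranded mRNA library kit was used. Per the submitters' processing notes the build is mm10. Which aligner, counter and annotation were used is not given in the sources used here, and counting precision is unknown because depth cannot be recovered from TPM. Left out were 26 entries whose names had become dates (0.044% of TPM).

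TPM were taken as log2(TPM + 0.5), which understates changes of low genes. Genes averaging at least 0.5 TPM (11244) were tested with limma 3.58.1 in R 4.3.3, with 12 group means, a variance trend (33 residual and 3.8 prior degrees of freedom) and Benjamini-Hochberg adjustment over all of them. Diet and sex label differences are averaged over the other label. Median-of-ratios scaling (each library divided by the median ratio of its genes to their geometric mean) is the alternative shown beside results. Others were pseudocounts of 0.1 and 2, quantile normalization, no filter on low genes or a minimum average of 5 TPM, no trend, single stages, a replicate block, a false discovery rate of 0.01 and each library left out in turn. The fit was tested on simulated data.

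The members and lists were chosen with earlier results of these data known. Named were all members, up to 4 called genes with the smallest p per list and comparison, and the 5 genes most like Cdkn1a by each measure, at a mean of at least 1 TPM. Gene positions are from GENCODE and promoter windows from RefSeq GRCm38.p6. No 2 libraries were identical. Other steps used scipy 1.17.1, pandas 2.3.3, matplotlib 3.10.9, numpy 2.4.6 and Python 3.11.15.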

Additional observations from a re-analysis of the deposited data

Results flagged for a closer look

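Single libraries stood apart from the other 3 of their group by Dixon's criterion in 11 of 90 cases tested over the 10 genes. A nominal rate of 1 in 20 would give 4.5. The criterion was applied to TPM without logs, and the 10 genes share the same libraries. No excess over chance is read from the 11. Cdkn1a stood at 113.3 TPM in peak ethanol female 3 (others 2.17 to 17.6), 81.96 in peak control male 4 (others 12.5 to 17.4) and 21.44 in late control male 3 (others 4.21 to 6.16). In peak ethanol female 1, Ccng1 stood at 13.83 TPM (others 4.10 to 5.49) and Phlda3 at 2.078 (others 0.120 to 0.243). Ccng1 stood at 7.439 TPM in late control male 1 and Sesn1 at 3.74 in peak ethanol male 3. Bax stood at 26.54 TPM in peak control female 4 and at 9.66 in late control female 4. Phlda3 stood at 0.06539 TPM in late control male 4 and Eda2r at 0.08526 in early control female 4, levels at which few reads are counted.

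The male-minus-female difference changed between stages for 3 members as deposited, by the interaction of stage and sex label in the limma fit over all genes. From peak to early resolution it changed by 0.5204 log2 for Mdm2 and 0.8847 for Ccng1, with 31.9% of all genes called. From peak to late resolution it changed by 0.8993 for Mdm2, 3.006 for Trp53inp1 and 0.9442 for Ccng1, with 36.5% of all genes called. After median-of-ratios scaling the 5 changes were 0.17, 0.55, 0.52, 2.61 and 0.58, of which the first was no longer called. Trp53 was then also called from peak to late resolution, with a change of -0.55 log2. Under scaling 1850 and 2270 of the 11244 genes were called in the 2 comparisons. The share of called genes with a positive change went from 92.8% to 55.5% and from 94.8% to 56.1%. Both comparisons share the peak libraries, and the members were chosen on these groups.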

How the results depend on the processing

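No log2 difference of a member changed sign where it was called. Under other settings 516 of these values moved by less than 1 within-group SD, and the 6 that moved more were Trp53, Mdm2 and Bax between sex labels at peak under median-of-ratios scaling and quantile normalization. Among members called, 1 by diet label at peak became 2 with no filter, which added Phlda3. At early resolution 1 became 0 under median-of-ratios scaling, quantile normalization or a false discovery rate of 0.01. At late resolution 1 became 3 under either scaling, and between sex labels there 1 became 3 under either and 2 with a pseudocount of 2 or the replicate block. The change from peak to late resolution went from 2 to 4 under median-of-ratios scaling, which lost Sesn1 and added Mdm2, Btg2 and Bax.

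Among wider targets, 4 by diet label at peak became 7 with no filter, 1 at a mean of at least 5 TPM, 9 under median-of-ratios scaling and 10 under quantile normalization. At early resolution 7 became 2 at 5 TPM, 4 with the stage alone and 3 at the stricter rate, and at late resolution 6 became 3, and 1 with the replicate block or the stricter rate. By sex label, 23 at peak became 13 at 5 TPM. At early resolution 0 became 1 at 5 TPM or under median-of-ratios scaling and 2 under quantile normalization, and at late resolution 3 became 5 under quantile normalization, 1 with the stage alone and 0 at the stricter rate. The cause was not tested, except that the higher minimum tests fewer genes.

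Leaving out 1 library at a time, members called by diet label ranged from 1 to 2 at peak, 0 to 1 at early and 1 to 3 at late resolution, and by sex label from 3 to 6, 0 to 0 and 1 to 3. The calls of Btg2 at early resolution were lost without control female 1, ethanol female 3, control male 2 or 4, or ethanol male 1 or 2. Peak ethanol female 2 (to 2 by diet label), late control female 3 (to 2), late ethanol female 3 (to 3 by either label) and late control females 2 and 4 (to 3 by sex label) moved the other counts. Wider targets ranged by diet label from 4 to 5, 4 to 11 and 2 to 7, and by sex label from 22 to 25, 0 to 2 and 0 to 5. The early sex label count was 1 without control female 4 or control male 2, and 2 without ethanol female 3 or ethanol male 2, and the late one 1 without late ethanol female 2. Replicate numbers did not pair libraries: 64 same-numbered pairs within a stage had r from -0.433 to 0.527, and 11 of 45 libraries correlated best with one of their own number. The replicate block moved no count of members by over 1.5 times other than the one named. Depth is unknown, which limits most the members under the filter, Phlda3 and Eda2r.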
